A study of Mus musculus with 15 samples.

Results

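Liver sinusoidal endothelium was compared with the continuous endothelium of brain and heart on 15 arrays of sorted mouse cells: 5 liver arrays against 5 brain and 5 heart arrays. A gene was called when liver differed from brain and from heart in the same direction, by at least 1 on the log2 scale each time (a 2-fold difference) and with both adjusted p-values of the limma fit under 0.05. Of 19938 genes tested, 536 were higher in liver than in both tissues and 292 were lower than in both. Of the 292, 168 were at a like level in brain and heart, the 95% interval of their brain minus heart difference lying within 1 of 0 on the log2 scale. These 168 are called shared below.

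The mice were Tie2-GFP mice on the FVB background, 8 to 12 weeks old, in which the promoter of Tek (Tie2) drives green fluorescent protein; no other allele or treatment is labelled. Endothelial cells and some blood cells use that promoter, and all 3 groups were sorted on GFP alone. Each brain array was a pool of 6 mice, each heart array of 4 and each liver array of 2, all labelled as equal numbers of males and females. Digestion took 60 min, at 37 °C with collagenase for brain (followed by trypsin) and heart, and at room temperature with dispase for liver, followed by removal of hepatocytes and a Percoll gradient. Tissue, enzyme, temperature and pool size cannot be told apart in this design. The p-values measure the spread between these pools.

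Continuous endothelium rests on a full basement membrane, is sealed by junctions and moves cargo through caveolae. Liver sinusoidal endothelium is open to the plasma through fenestrae without a diaphragm, lacks an organised basement membrane and clears waste from blood through scavenger receptors and clathrin-coated pits. Sinusoidal cells also supply growth factors to hepatocytes, and the factor GATA4 is known to keep them from acquiring a continuous form.

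The mean of 28 pan-endothelial genes lay between 9.87 and 10.2 on all 15 arrays. By their means 15 of them were below both tissues in liver and 8 above both; 27 were not called and Clec14a was higher by 1.29. The liver arrays differed in markers of other cells and of sex. The mean of 20 Kupffer cell and macrophage markers was 7.53, 5.84, 8.00, 7.74 and 5.61 on liver arrays 1 to 5, against 5.17 to 5.47 on brain and heart arrays. Xist, transcribed from the inactive X chromosome of females, was at 5.44, 9.08, 9.41, 3.81 and 4.84 on liver arrays 1 to 5, against 8.53 to 9.63 elsewhere. The Y-linked gene Eif2s3y was at 4.08 on liver array 3, against 7.80 to 8.50 on the other liver arrays. Xist on liver arrays 1, 4 and 5 and Eif2s3y on liver array 3 go against an equal mix of the sexes, and the part of sex in the results was not tested. With liver arrays 1, 3 and 4 left out, the liver arrays with the highest macrophage markers, 446 genes were called higher (426 of them among the 536), 286 lower (249 among the 292) and 175 shared (148 among the 168).

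The 536 higher genes were 2.69% of all genes tested, the 292 lower genes 1.46% and the 168 shared genes 0.843%. All 5 liver arrays lay above all 10 brain and heart arrays for 490 of the 536, and below all 10 for 276 of the 292 and 161 of the 168. The rule for a call favours such separation, and its share over all genes was not counted. Median differences from the nearer of brain and heart were 1.56 for higher, -1.53 for lower and -1.52 for shared genes, while the medians over all genes were 0.00 against brain and -0.03 against heart. The higher genes reached further: 36 were at least 4 above the nearer tissue and 20 at least 5, while 10 of the lower genes were at least 4 below it. The 20 include the hepatocyte genes Alb (5.62) and Fabp1 (5.27), and the 36 also the Kupffer cell gene Vsig4 (4.78). Below, a single difference is that from the nearer tissue, and its adjusted p is the larger of the gene's pair from limma. In bulk samples fewer cells of a type and less RNA per cell cannot be told apart.

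**Figure D1:**
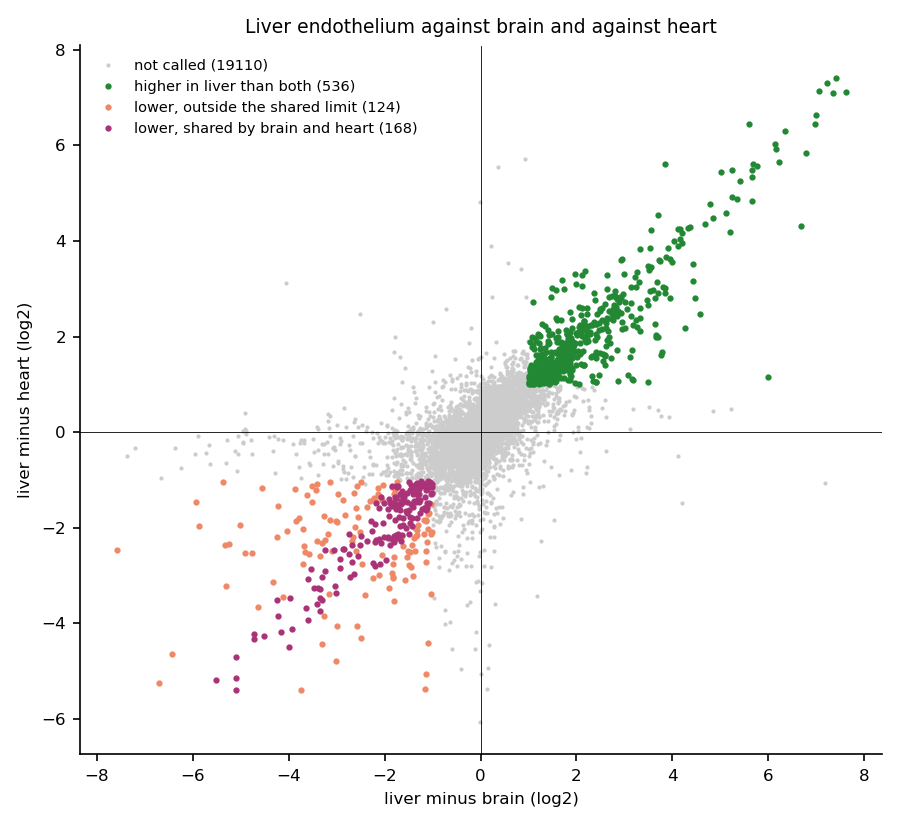
Each point is 1 of 19938 genes, placed by its liver minus brain (horizontal) and liver minus heart (vertical) difference on the log2 scale. Green points are the 536 genes higher in liver than in both, purple points the 168 lower and shared genes, orange points the other lower genes, and grey points were not called; both axes use the same liver arrays.

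All 5 marker genes given for sinusoidal endothelium were higher in liver on every array. Gata4, the transcription factor of the sinusoidal programme, was at 8.92, 9.23, 8.93, 8.84 and 9.25 on the liver arrays. Its brain arrays lay between 6.10 and 6.43 and its heart arrays between 6.49 and 6.83. No liver array overlapped with the others, a separation that the rule for a call favours. The difference from heart, the nearer tissue, was 2.37 ± 0.10 (SE, limma adjusted p = 6.61e-12). Clec4g, a lectin of sinusoidal cells, differed by 7.40, Dnase1l3, a secreted nuclease that degrades DNA in blood, by 7.22, Mrc1, the mannose receptor, by 7.10 and Stab2, a scavenger receptor for hyaluronan, by 6.30. On the liver arrays Clec4g stayed between 12.46 and 12.63, Dnase1l3 between 11.76 and 12.22, Mrc1 between 12.02 and 12.35 and Stab2 between 12.20 and 12.29, including liver arrays 2 and 5 with few macrophage markers.

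The 3 largest losses in liver were of an enzyme, a transcription factor and a matrix protein. Car4, a carbonic anhydrase on the luminal face of capillaries, was at 11.91, 12.01, 11.79, 11.83 and 11.96 in brain and at 10.39, 10.08, 10.73, 10.46 and 10.62 in heart. It was at 5.17, 5.21, 5.29, 5.30 and 5.06 in liver, 38.1-fold below heart (adjusted p = 1.61e-16). Brain exceeded heart by 1.45, so Car4 was lower but not shared. Ebf1, a transcription factor best known from B cell and adipocyte development, was at 9.86, 9.92, 9.86, 9.52 and 9.71 in brain and at 9.68, 9.63, 9.20, 9.49 and 9.28 in heart. In liver it was at 4.15, 4.10, 4.10, 4.65 and 4.28, which is 36.8-fold below heart (difference -5.20 ± 0.12, SE; adjusted p = 1.44e-15). Ebf1 was therefore at a like level in both continuous endothelia and low on every liver array.

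Sparcl1, a secreted matrix protein related to SPARC, was lower by 5.10 ± 0.39 (SE; adjusted p = 1.26e-08), but its liver arrays were uneven. It was between 12.67 and 12.89 on all brain and heart arrays. In liver it was at 6.81, 8.36, 6.96, 6.68 and 9.52: the 2 higher values are those of liver arrays 2 and 5, the arrays with few macrophage markers. Of the 292 lower genes, 4 had an SD of at least 1 over the liver arrays (Sparcl1, Kitl, Tm6sf1 and Xist), and Sparcl1 was the 1 gene of these highest on liver arrays 2 and 5.

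The other leading shared genes are known for roles in signalling, trafficking and cell shape. Cxcl12, a chemokine that holds and attracts cells bearing CXCR4, was at 5.15 to 6.09 in liver, with brain at 9.94 to 10.52 and heart at 9.82 to 10.31, 19.3-fold below heart (adjusted p = 1.14e-12). Rassf9, a Ras-association domain protein, fell by 5.09 and Palmd, palmdelphin, by 4.70. Dnm3, a dynamin GTPase of membrane fission, was 20.1-fold lower, and St8sia4, which builds polysialic acid on glycoproteins, 18.6-fold lower. Clic5, a chloride intracellular channel family member tied to the cortical cytoskeleton, was 15.9-fold lower and Stard13 14.5-fold. Ccdc85a was 17.9-fold, Akr1c14, an aldo-keto reductase with close relatives, 12.4-fold and Stmn2, a microtubule-destabilising protein best known in neurons, 15.2-fold lower. The liver arrays lay below all brain and heart arrays for each of these genes by the rule that chose them. For Stmn2, the other 9 measured genes of the neuron marker list were not called.

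Abcb1a, Aplnr and Sema7a were among the leading lower genes but fell outside the limit for a like level in brain and heart. Abcb1a, the drug efflux pump P-glycoprotein, was at 5.61 to 6.01 in liver (brain 12.21 to 12.33, heart 10.24 to 10.61). Aplnr, the apelin receptor, ran the other way, at 4.38 to 5.88 in liver, with brain at 8.56 to 9.21 and heart at 9.96 to 10.96. Sema7a, a membrane-anchored semaphorin, was lower by 3.67. Over all 292 lower genes, brain exceeded heart by at least 1 for 42 genes and heart exceeded brain by at least 1 for 27.

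**Figure D2:**
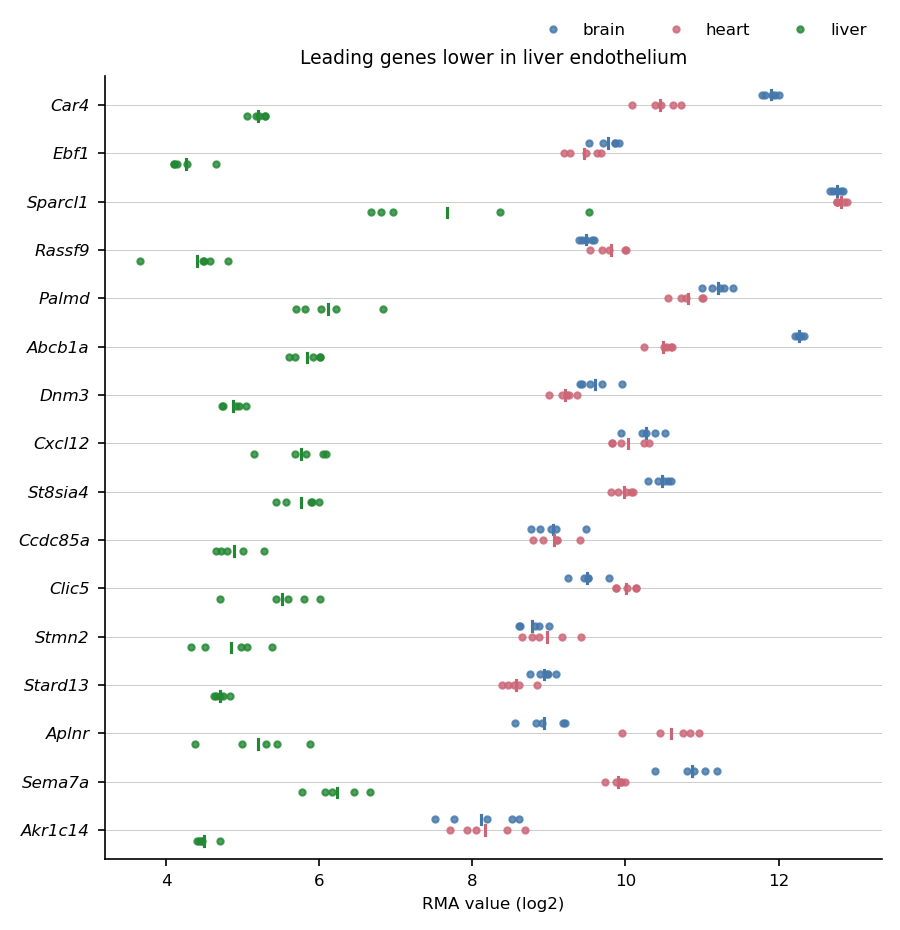
RMA values (log2) of the 16 leading lower genes on each array, with brain in blue, heart in red and liver in green; each point is 1 array and each vertical bar a mean of 5 arrays. The genes were chosen so that every liver array lies below every brain and heart array, and the liver points of Sparcl1 spread from 6.68 to 9.52.

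For 21 of the 168 shared genes the level was in the top 25% of genes on every brain and heart array and in the lower 50% on every liver array. They include Ebf1, Rassf9, Dnm3, St8sia4, Ccdc85a, Clic5, Stmn2 and Stard13. Actin and adhesion genes were also among them: Ablim1, an actin-binding LIM protein, fell by 3.51, Lmo7, a junction-associated LIM protein, by 3.01 and Enah, an actin polymerase of cell edges, by 2.48. Plod2, a lysyl hydroxylase of collagen, was 12.1-fold lower, Elmo1, a partner of DOCK proteins in Rac activation, 9.94-fold and St8sia6, another sialyltransferase, 9.64-fold. The reverse pattern, top 25% on every liver array and lower 50% on every other array, held for 31 of the 536 higher genes.

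Of 9 measured caveolar and diaphragm genes 4 were lower and 0 higher, with list medians of -0.24 against brain and -0.96 against heart. Cav1, the main coat protein of caveolae, was at 8.61 to 8.83 in liver (brain 10.42 to 10.60, heart 11.60 to 11.78), 3.60-fold below brain (adjusted p = 5.35e-13). No Cav1 array overlapped between the tissues, and the rule for a call favours such separation of liver. Ehd2, which stabilises the caveolar neck, was 3.73-fold lower, Cavin3 2.28-fold and Cavin1 2.03-fold. Cavin1 was near the limit, and its difference was -0.97 with brain array 1 and heart arrays 1 and 3 left out, the arrays with the highest pericyte markers. Plvap, the protein of fenestral and caveolar diaphragms, was not called; its means were 7.48 ± 0.40 in liver, with brain at 6.57 ± 0.07 and heart at 6.43 ± 0.22 (SD, n = 5 each). With liver arrays 1, 3 and 4 left out Plvap was called higher, by 1.07.

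Of 15 tight junction genes 2 were lower, the scaffolds Cgnl1 (by 1.87) and Afdn (by 1.35). Cldn5, the main claudin of endothelium, lay between the continuous endothelia, at 11.27 ± 0.38 in brain, 9.86 ± 0.16 in liver and 8.92 ± 0.27 in heart (SD, n = 5 each). Ocln was at 9.98 ± 0.35 in brain but at 4.85 ± 0.23 in heart and 4.69 ± 0.15 in liver, so liver and heart were both low. Of 18 adherens junction and adhesion genes 2 were lower, both catenins: Jup (plakoglobin) was 4.30-fold and Ctnnb1 (beta-catenin) 2.16-fold lower. Cdh5, the cadherin that binds them, was not called, at 11.73 ± 0.26 in liver (brain 11.50 ± 0.11, heart 12.06 ± 0.17).

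At the cell surface and beneath it, single genes changed in each list. Cd34, a sialomucin of the luminal surface, was at 8.21 to 8.52 in liver, with brain at 11.13 to 11.24 and heart at 10.65 to 11.20, 5.90-fold below heart (adjusted p = 4.59e-12). Of the other 18 glycocalyx genes, Hyal2, a hyaluronidase, was higher by 1.27 and Sdc2, a syndecan, lower by 1.00. Sdc2 had adjusted p = 0.0287 and was 0.65 lower with brain array 1 and heart arrays 1 and 3 left out. Of 19 basement membrane genes 3 were lower: Sparcl1, Fbln5, an elastic fibre protein, by 2.00 and Lama3, a laminin chain, by 1.36. The collagen IV chain Col4a1 was 0.55 below brain and 1.12 below heart and so was not called. The medians of the basement membrane list were -0.55 against brain and -0.90 against heart.

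Among 20 integrin and focal adhesion genes, Itga6, the laminin-binding alpha chain, was 3.08-fold lower and Lims2 (PINCH2) 2.94-fold lower. Itga9, whose product binds tenascin and VCAM1, was 8.08-fold higher. Of 21 actomyosin genes Myl9, Myh10 and Tpm2 were lower and Palld was higher, by 1.19. With liver arrays 1, 3 and 4 left out Palld was at 0.92 and not called, and Flna, filamin A, was called lower (-1.02). Myh10, non-muscle myosin IIB, was at 6.25 to 6.76 in liver (brain 8.45 to 8.70, heart 8.26 to 8.54). Myl9 and Tpm2 are also used by smooth muscle, and both were highest on brain array 1, at 10.82 and 8.83.

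**Figure D3:**
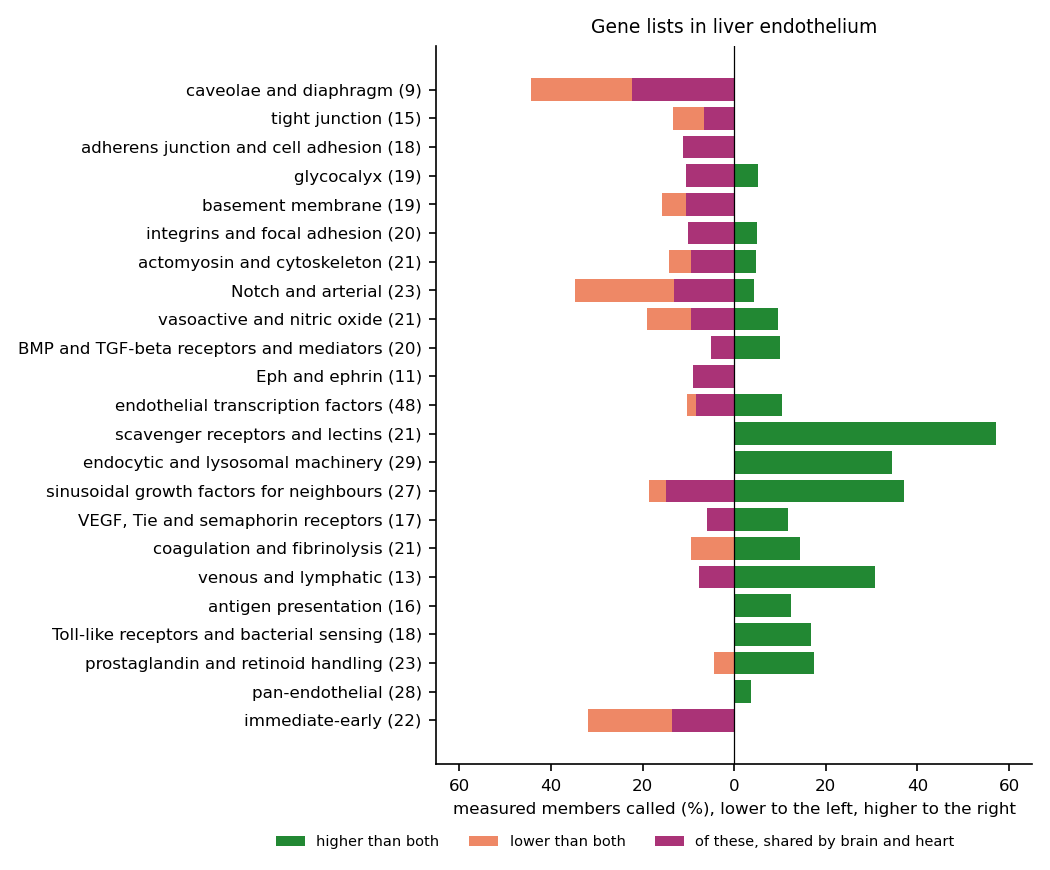
Share of the measured members of each gene list that were called, in percent, with lower genes to the left (purple where shared by brain and heart, orange otherwise) and higher genes to the right in green. Numbers in brackets are measured members, and marker lists of other cell types are not plotted; of the lists drawn, scavenger receptors and lectins have the longest bar to the right, and the caveolar list the longest to the left.

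The Notch and arterial list had more lower genes than higher ones: of 23 measured, 8 were lower, 3 of them shared, and 1 was higher, with medians of -0.88 and -0.89 against brain and heart. Hey1, a transcriptional target of Notch, was at 9.31, 9.12, 8.70, 8.54 and 8.70 in brain and at 9.02, 8.89, 8.96, 8.95 and 9.20 in heart. It was at 5.79, 5.71, 5.28, 5.37 and 5.55 in liver, 10.1-fold below brain (adjusted p = 1.97e-12). The liver arrays of Hey1 did not overlap with the others, a separation that the rule for a call favours. The ligands Jag1 and Jag2 were lower by 1.17 and 1.38, while the receptor Notch1 was at 8.37 ± 0.15 in liver, 8.43 ± 0.24 in brain and 8.42 ± 0.19 in heart, and the ligand Dll4 at 7.75 ± 0.21, 7.73 ± 0.24 and 8.09 ± 0.26 (SD, n = 5 each). Vegfc was 4.60-fold lower, Mgp, an inhibitor of calcification and BMP signalling, 6.75-fold, and the tyrosine kinase Bmx 2.17-fold. The arterial connexin genes parted: Gja5 was lower by 1.02 and Gja4 higher by 1.61. With liver arrays 1, 3 and 4 left out, 6 of the list were lower, without Bmx (-0.85) and Gja5 (-0.58). Gja5 also missed the limit when any 1 of 5 single arrays was left out, at -0.80 without brain array 2.

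Genes that set vessel tone moved in both directions. Of 21 measured, Aplnr, Ace, S1pr1 and Edn1 were lower and Npr1 and Ddah2 higher. Ace, angiotensin-converting enzyme, was at 6.14 to 6.73 in liver, with brain at 7.88 to 8.44 and heart at 7.79 to 8.51. S1pr1, the receptor for sphingosine 1-phosphate that stabilises junctions, was 2.41-fold lower. Edn1, endothelin 1, was at 5.54 to 6.91 in liver (brain 9.85 to 10.21, heart 6.71 to 7.67), so liver and heart overlapped, and its difference from heart was -0.64 with liver arrays 1, 3 and 4 left out, below the limit. Npr1, a natriuretic peptide receptor, was 2.65-fold higher. Ddah2, which degrades an inhibitor of nitric oxide synthase, was higher by 1.04, and by 0.87 without those 3 arrays.

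Of 48 endothelial transcription factors 5 were higher, 5 lower (4 of them shared) and 38 not called, among them Erg at 9.98 ± 0.13 in liver, with brain at 10.18 ± 0.16 and heart at 10.13 ± 0.14. Tfec, a relative of MITF and TFEB, was 65.6-fold higher. Maf, which marks sinusoidal and lymphatic endothelium, was 4.45-fold higher, at 8.15, 9.68, 8.04, 7.97 and 7.90 in liver, and 1 liver array thus stood above the rest. The orphan receptors Nr2f2 (COUP-TFII), a venous regulator, and Nr2f1 were higher by 1.59 and 1.23. Tbx3, a T-box repressor, was at 5.29 to 5.86 in liver (brain 8.26 to 8.80, heart 8.16 to 8.59). Meox1, a homeobox factor, was lower by 1.83 and the zinc finger factors Klf4 and Klf6 by 1.52 and 1.13. Klf6 fell just short of the limit with heart arrays 1 and 3 left out, alone or together with brain array 1. Meox2 and Lef1 were lower against 1 tissue alone: Meox2 was 4.95 below heart and 0.16 above brain, Lef1 5.04 below brain and 0.08 below heart.

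Of 27 factors secreted towards neighbouring cells, 10 were higher and 5 lower, 4 of them shared. Bmp2, which induces hepcidin in hepatocytes, was at 11.54 to 11.87 in liver, with brain at 5.60 to 6.46 and heart at 4.68 to 5.68, 48.4-fold above brain (adjusted p = 1.76e-14). Bmp6, its partner in iron sensing, was higher by 1.06, and by 0.83 (not called) with liver arrays 1, 3 and 4 left out. Hgf, the hepatocyte growth factor, was 19.4-fold higher, Rspo3 and Wnt2, which act in Wnt signalling of the pericentral lobule, 9.56-fold and 4.95-fold, and Il1a, an inflammatory cytokine, 133-fold. The chemokines Cxcl9, Cxcl10 and Cxcl16 were also higher, by 2.81, 1.80 and 2.15. Cxcl9 and Cxcl10 were uneven in liver and highest on liver array 2, at 10.23 and 9.96. The other liver arrays were at 8.62 to 9.15 for Cxcl9 and 7.05 to 8.73 for Cxcl10. Igfbp4 was higher by 2.53 and Igfbp3 lower by 3.34, both proteins that bind insulin-like growth factors.

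The lower secreted factors were Cxcl12, Igfbp3, Kitl, Pdgfb and Pdgfd. Pdgfb, the signal by which endothelium recruits pericytes, was at 6.43 to 7.04 in liver (brain 8.80 to 9.30, heart 8.68 to 8.85), 4.22-fold below heart (adjusted p = 9.95e-11). Kitl, the stem cell factor, was at 10.22 to 10.80 on the brain and heart arrays but at 8.47, 8.49, 5.92, 8.69 and 4.26 on the liver arrays. The liver arrays of Kitl lay below the others but differed among themselves by more than 4 log2 units, and its adjusted p was 0.000797. Ackr3, a receptor that removes CXCL12, was lower too, by 2.44, at 5.64 to 6.44 in liver, with brain at 8.47 to 9.06 and heart at 8.07 to 8.59.

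**Figure D4:**
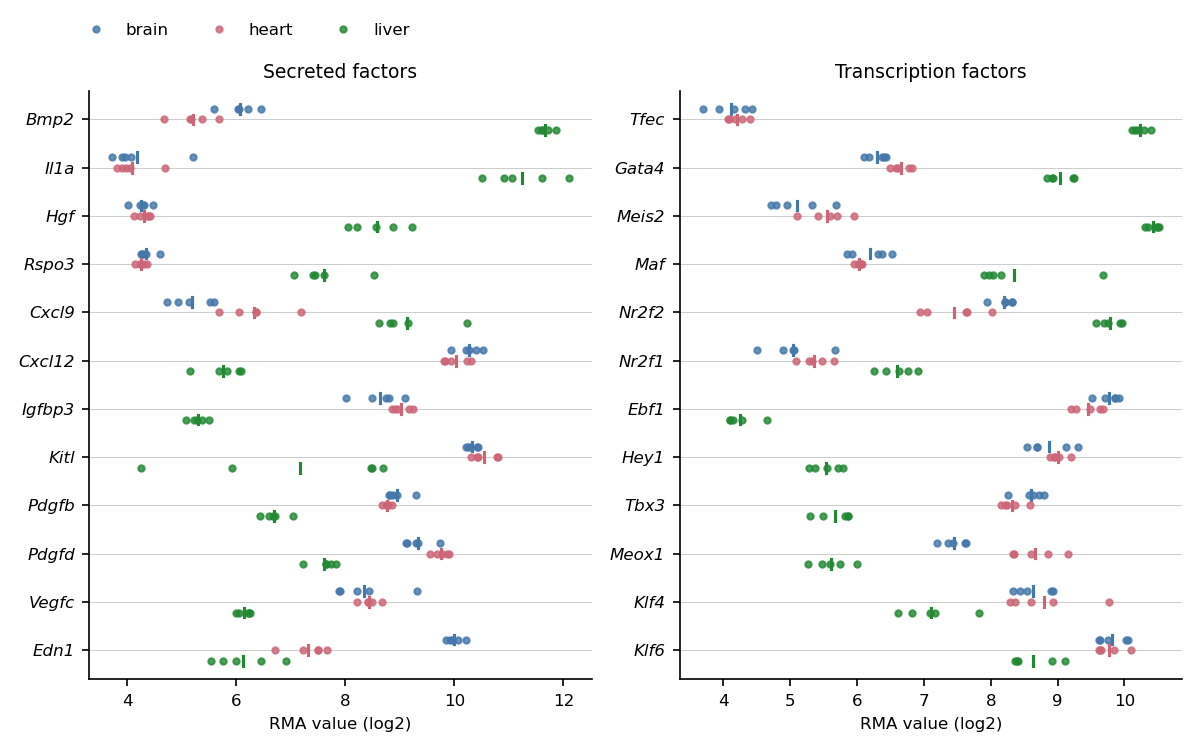
RMA values (log2) of secreted factors (left) and transcription factors (right) on each array, with brain in blue, heart in red and liver in green; points are arrays and bars the means of 5 arrays. Bmp2, Hgf, Tfec and Meis2 lie to the right in liver, and Cxcl12, Igfbp3, Ebf1 and Hey1 to the left, with no overlap; the Kitl points of liver spread from 4.26 to 8.69.

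The GATA, ETS and SOX factor families have short DNA motifs, so the 250 bases before the start of each gene were searched on both strands for 3 motifs: for GATA factors AGATAA, for ETS factors AGGAAGT and for SOX factors CCATTGT. No motif is contained in another. RefSeq promoter sequences of the mouse assembly GRCm38.p6 with 1 start per gene were matched for 12977 genes, including 338 higher, 168 lower and 94 shared genes. The GATA motif was in 8.96% of all promoters, 9.47% of higher, 4.76% of lower and 3.19% (3 genes) of shared ones. The ETS motif was in 7.48%, 10.4%, 6.55% and 5.32% of the same sets, and the SOX motif in 2.31%, 1.78%, 2.38% and 2.13%. These shares are descriptions of letters in a window, and no difference between them was tested. Of the 16 leading lower genes 10 were among those searched, and Akr1c14 was the 1 of them with a motif. Of the leading higher genes searched, Il13ra2, Mrc1, Tfec, Plxnc1, Slc9a9 and Fam167b held a motif, and the others, Clec4g and Stab2 among them, held none. The promoter of Akr1c14 is shown with those of 3 of the leading higher genes that held one. Each is given 5′ to 3′ on the strand of its gene, with the motif (or its reverse complement) in capitals.
Il13ra2, minus strand of chrX:147429193-147429442: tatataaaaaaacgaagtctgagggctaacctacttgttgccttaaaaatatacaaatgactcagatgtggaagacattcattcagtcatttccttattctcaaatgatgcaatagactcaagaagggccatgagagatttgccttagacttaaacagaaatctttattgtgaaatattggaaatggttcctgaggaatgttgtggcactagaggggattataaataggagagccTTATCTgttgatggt
Mrc1, plus strand of chr2:14229164-14229413: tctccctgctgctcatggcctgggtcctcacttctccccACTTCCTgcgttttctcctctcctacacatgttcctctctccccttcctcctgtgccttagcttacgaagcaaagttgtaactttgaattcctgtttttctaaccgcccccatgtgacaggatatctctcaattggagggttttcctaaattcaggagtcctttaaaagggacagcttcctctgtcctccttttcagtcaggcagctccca
Tfec, minus strand of chr6:16898442-16898691: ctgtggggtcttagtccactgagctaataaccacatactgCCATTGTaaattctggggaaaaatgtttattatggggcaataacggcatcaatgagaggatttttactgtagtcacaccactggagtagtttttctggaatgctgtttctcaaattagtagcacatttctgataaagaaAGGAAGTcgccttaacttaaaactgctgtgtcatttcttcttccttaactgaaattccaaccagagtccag
Akr1c14, plus strand of chr13:4059341-4059590: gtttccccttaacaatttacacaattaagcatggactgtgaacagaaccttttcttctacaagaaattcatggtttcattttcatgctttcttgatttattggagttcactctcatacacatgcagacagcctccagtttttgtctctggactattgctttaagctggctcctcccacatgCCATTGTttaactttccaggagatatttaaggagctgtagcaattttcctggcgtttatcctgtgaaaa

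Il13ra2, a decoy receptor for interleukin 13, carries the GATA motif 15 bases before its start and was at 8.59 to 9.40 in liver (brain 3.23 to 3.50, heart 3.41 to 3.69). Mrc1 and Tfec hold an ETS motif 211 and 71 bases before their starts, and Tfec and Akr1c14 a SOX motif 210 and 69 bases before theirs. Akr1c14 was at 7.51 to 8.69 in brain and heart and at 4.41 to 4.70 in liver.

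Of 21 scavenger receptors and lectins 12 were higher and 0 lower, with medians of 2.02 against brain and 1.32 against heart, and 12 were also higher with liver arrays 1, 3 and 4 left out. Msr1, the class A scavenger receptor, was at 10.87, 11.20, 11.29, 11.27 and 11.19 in liver and at most 4.14 on all other arrays, 139-fold above heart. Fcgr2b, the inhibitory IgG receptor that takes up immune complexes, was at 11.14 to 11.17 in liver, a range narrower than in brain (4.85 to 5.17) or heart (5.07 to 5.44). Clec1b was 30.5-fold higher, and Stab1, Lyve1, Cd209b and Cd302 were higher by 3.04, 2.92, 2.02 and 1.70. Cd36, a fatty acid and lipoprotein receptor, was not called, since liver (11.30 ± 0.14) lay 7.17 above brain but 1.07 below heart.

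Of 29 genes for endocytosis and lysosomes 10 were higher and 0 lower, and 9 were higher with liver arrays 1, 3 and 4 left out. The lysosomal protease Ctss (cathepsin S) was higher by 1.73, at 10.26, 8.44, 10.50, 10.33 and 7.39 on liver arrays 1 to 5. Without liver arrays 1, 3 and 4 its difference was 0.27 and it was not called. Ehd3, which acts in endosome recycling, was at 11.23 to 11.51 in liver, with brain at 6.13 to 6.53 and heart at 5.51 to 6.22. The liver level of Ehd3 was 32.3-fold above brain, while its relative Ehd2 was lower, as given above. The lysosomal proteases Lgmn (legumain), Ctsb, Ctsd and Ctsl were 11.7-fold, 3.72-fold, 2.36-fold and 2.35-fold higher, and the hexosaminidase chain Hexa 3.70-fold. Dab2, a clathrin adaptor, was higher by 1.57 (0.82 and not called as the mean of its probe sets), Snx2, a sorting nexin, by 1.74 and Lamp2, a lysosomal membrane protein, by 1.63.

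Several leading higher genes belong to other roles. Plxnc1, the receptor of Sema7a, was at 11.65 to 11.69 in liver, 4.40 to 4.97 in brain and 5.03 to 5.53 in heart; Plxnc1 was 86.8-fold higher where Sema7a was 12.7-fold lower. Hpgd, the enzyme that inactivates prostaglandins, and Slco2a1, the carrier that brings them into the cell, were 99.7-fold and 19.7-fold higher. F8, coagulation factor VIII, was 50.4-fold higher. Meis2, a homeobox cofactor, was at 10.31 to 10.52 in liver (brain 4.71 to 5.69, heart 5.10 to 5.96). Oit3, a secreted protein of liver, was 47.2-fold and Slc9a9, an endosomal sodium-proton exchanger, 40.6-fold higher. Akr1b8, an aldo-keto reductase with close relatives, was 57.5-fold, Fam167b 37.6-fold and Enpep, an aminopeptidase that cleaves angiotensin II, 28.4-fold higher.

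In haemostasis F8, Tfpi and Pros1 were higher and Plat and Entpd1 lower, of 21 genes measured. Tfpi, the inhibitor of tissue factor, was 4.21-fold and Pros1, protein S, 2.48-fold higher; Plat, tissue plasminogen activator, was at 4.88 to 6.03 in liver, with brain at 9.13 to 9.48 and heart at 7.82 to 9.01. Of 13 venous and lymphatic genes Lyve1, Flt4, Ackr1 and Nr2f2 were higher and Ackr3 was lower, while Prox1, the lymphatic master factor, was at 5.22 ± 0.34 in liver, 4.80 ± 0.28 in brain and 5.47 ± 0.38 in heart. Flt4, the VEGFC receptor, was 5.14-fold higher, opposite to its ligand Vegfc. The list of receptors for VEGF, angiopoietins and semaphorins, with some ligands, had 17 genes measured: Flt4 and Plxnc1 were higher and Vegfc was lower. Of 20 BMP and TGF-beta receptors and mediators Bmper and Id2 were higher, by 1.35 and 1.33, and Id1 was lower by 1.50. Of 11 Eph and ephrin genes Epha4 alone was called, lower by 2.91.

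Rarb, a retinoic acid receptor, was 5.41-fold higher and Dhrs3, a retinal reductase, 2.08-fold (a difference of 0.99 without heart array 4 and of 0.98 without liver array 5, so not called), while Rbp7, a retinol-binding protein of heart capillaries, was 1.15 below brain and 5.39 below heart. Rbp7 was 0.78 below brain with liver arrays 1, 3 and 4 left out. Of 18 genes of bacterial sensing 3 were higher: Ly96 (MD-2), the partner of TLR4, by 3.03, Lbp, the lipopolysaccharide-binding protein, by 1.69 and Tlr2 by 1.40. Of 16 antigen presentation genes H2-Aa and Cd74 were higher, by 2.18 and 1.89, beside the macrophage markers: H2-Aa was at 8.35, 6.77, 9.56, 9.41 and 6.84 and Cd74 at 8.11, 6.07, 8.74, 7.94 and 5.82 on liver arrays 1 to 5. Without liver arrays 1, 3 and 4 neither was called, and the differences were 0.80 and 0.50.

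Markers of other cells were also among the higher genes. Of 20 Kupffer cell and macrophage markers 13 were higher in liver, and 1, Vsig4, with liver arrays 1, 3 and 4 left out. Vsig4, a complement receptor of Kupffer cells, was at 10.23, 7.57, 10.64, 10.70 and 5.29 in liver and at 3.75 to 4.35 elsewhere. Of the 536 higher genes 50 had an SD of at least 1 over the liver arrays, and 47 of those were lowest on liver arrays 2 and 5; 13 of the 50 are on the macrophage list. None of the 41 leading genes and markers lost its call without arrays 1, 3 and 4. Most of the 41 were chosen for their large differences, and the Kupffer cell gene Vsig4 is among them. Keeping the call therefore does not set macrophage RNA apart. Of genes that macrophages also express, Msr1 was at 11.20 and 11.19 on liver arrays 2 and 5, Mrc1 at 12.35 and 12.02 and Fcgr2b at 11.16 and 11.17. The part of macrophage RNA in the higher genes, these included, was not tested.

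Of 19 hepatocyte markers 10 were higher and 0 lower. Their mean was 7.10, 7.14, 6.92, 6.82 and 7.46 on liver arrays 1 to 5 against 5.28 to 5.79 elsewhere. Alb, albumin, was at 9.42 to 10.32 in liver and 4.00 to 4.47 elsewhere, and Fabp1, a hepatocyte fatty acid-binding protein, was 38.5-fold higher. Apoa2 was at 8.89, 10.02, 9.86, 9.44 and 11.34 on liver arrays 1 to 5. The part of hepatocyte RNA in the higher genes was not tested. The lists for stellate cells (16 genes), cholangiocytes (6), astrocytes (10) and granulocytes, red cells and platelets (11) had no called gene. Lymphoid markers had 2 of 13 higher, Cd3g by 1.46 and the leukocyte antigen Ptprc by 1.25, and 0 with liver arrays 1, 3 and 4 left out. Cnp, of 9 oligodendrocyte markers, and Calml4, of 8 choroid plexus markers, were higher by 1.17 and 3.69.

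Some pericyte and smooth muscle markers were among the lower genes. Of 15 measured, Acta2, Myh11, Rgs5 and Higd1b were lower in liver. Higd1b was not called without brain array 1 (-0.96), nor with liver arrays 1, 3 and 4 left out, where its difference was -1.06 but both adjusted p-values missed the threshold. The list mean was 7.72, 6.34, 6.70, 6.84 and 6.12 on brain arrays 1 to 5, 7.85, 7.18, 7.54, 7.09 and 6.56 on heart arrays 1 to 5 and 5.93 to 6.06 on liver arrays. Acta2, smooth muscle actin, was at 4.88 to 5.46 in liver (brain 7.05 to 10.08, heart 7.76 to 9.08). With brain array 1 and heart arrays 1 and 3 left out, 271 genes were lower (266 of them among the 292) and 151 shared (140 among the 168). Cardiomyocyte markers (16 genes) had a mean of 8.21 ± 0.63 in heart, 5.93 ± 0.08 in brain and 5.70 ± 0.10 in liver, and fibroblast markers (12 genes) of 7.02 ± 0.39, 5.99 ± 0.19 and 5.65 ± 0.20 (SD, n = 5 each). On these 2 lists 1 gene each was called: Pln, a regulator of the calcium pump in cardiac and smooth muscle, was lower by 2.50 and Fn1, fibronectin, by 3.22. The part of mural cells, cardiomyocytes and fibroblasts in the lower genes was not tested.

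**Figure D5:**
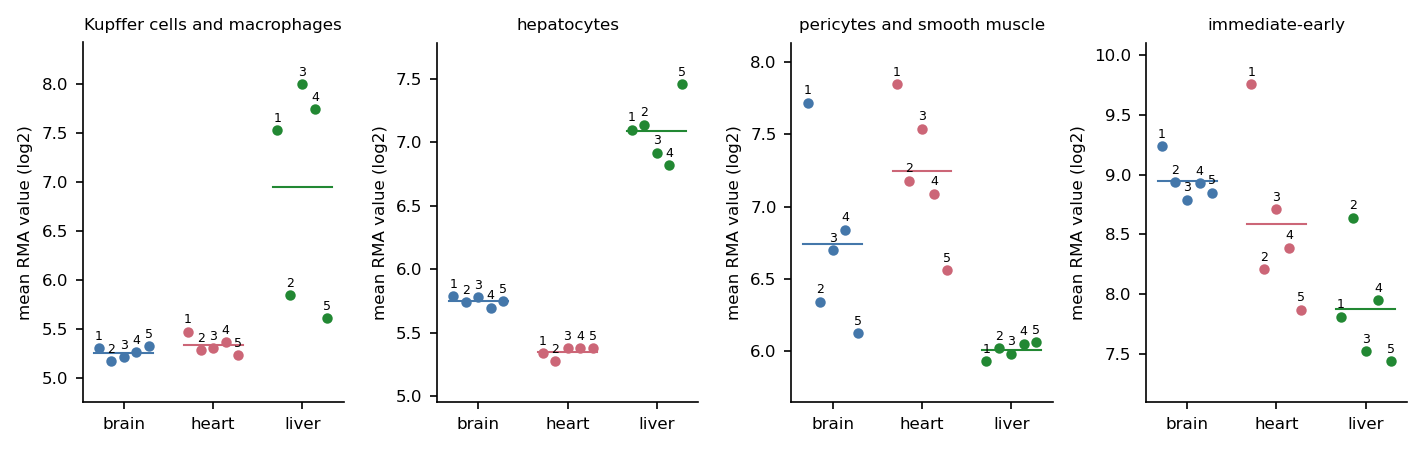
Mean RMA value (log2) of the measured genes of 4 lists on each array, with the array number above each point and a line at the mean of 5 arrays. Kupffer cell and macrophage markers run from 5.61 to 8.00 over the liver arrays, hepatocyte markers are above the other tissues on all 5, pericyte markers are highest on brain array 1 and heart arrays 1 and 3, and immediate-early genes on heart array 1.

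Immediate-early and stress genes were lower in liver for 7 of 22 measured and higher for 0. The liver cells were digested at room temperature and the others at 37 °C. Temperature cannot be told apart here from tissue, enzyme and pool size, and its part was not tested. The list mean was 7.44 to 8.64 in liver, with brain at 8.79 to 9.24 and heart at 7.87 to 9.76, so liver overlapped with heart but not with brain. Hspb1, a small heat shock protein that binds actin filaments, was lower by 3.46, at 6.53 to 7.74 in liver (brain 10.75 to 11.41, heart 10.06 to 10.91). Nr4a1, Btg2, Egr2, Klf4, Klf6 and Hspa1a were the other 6. Egr2 rested on heart array 1 (10.33): without that array its difference was -0.88 and it was not called. With brain array 1 and heart arrays 1 and 3 left out 4 of the list were lower, without Klf6, Egr2 and Hspa1a, and with liver arrays 1, 3 and 4 left out 3 (Hspb1, Klf4 and Klf6).

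Genes near the limits show where the calls end. Sdc2 was the lower gene closest to it, at -1.003, and Mylpf just missed it, at -0.9999. On the higher side Tpbgl was just inside at 1.0001 and Man2b1, a lysosomal mannosidase, just outside at 0.9952. Without the minimum of 1, 2064 genes were higher and 1124 lower than in both tissues by adjusted p alone, and 142 differed significantly from both in opposite directions.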

How the data were processed

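The authors deposited log2 values of 35556 probe sets on 15 arrays, made by RMA with Affymetrix Power Tools, per the submitters' processing notes, with versions and genome build not given in the sources used here. RMA gives the arrays nearly equal distributions and compresses large differences. The values were used as deposited; scanner files were not used here, so signal was not tested against background, and the precision is limited by 5 arrays per tissue. Probe sets with 1 gene symbol (21789) were kept, 1621 with several and 12146 unnamed were left out, and for 999 genes the probe set with the highest mean was taken, which left 19938 genes. Probes of genes with close relatives may bind RNA of more than 1 member.

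The 15 arrays entered 1 limma 3.58.1 model with a mean for each tissue (lmFit, eBayes; R 4.3.3; 12 residual and 4.75 prior degrees of freedom). The adjusted p-values are Benjamini-Hochberg values over all genes within each contrast, with a threshold of 0.05. Values are means ± SD over 5 arrays, and a fold is 2 to the power of the log2 difference. The fit was also run on simulated data with the same mean in brain and heart and independent normal noise. That simulation lacks the uneven liver arrays of the real data, so it does not check calls that rest on them. The 36 gene lists (633 genes, 598 measured, 45 on more than 1 list), the members and the rules were chosen with earlier results of these data known, so no list is independent evidence. Named genes were the 5 markers, the 16 lower, 12 lower and shared and 24 higher genes with the largest difference from the nearer tissue and no overlap of arrays, and up to 5 called members per list and direction; a few other genes of the lists and families are named with their values and were chosen after these were seen. The alternatives are given in the closing section.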

Additional observations from a re-analysis of the deposited data

Results flagged for a closer look

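Of 231 groups of 5 arrays (41 leading genes and markers and 36 list means in each tissue), 18 held an array far from the other 4, its gap to the nearest array being over 0.71 of the group's range. Chance alone gives such a gap in about 1 in 20 groups.

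Among the lower genes, Rassf9 was low on liver array 3 (3.66), Akr1c14 high on liver array 4 (4.70) and Abcb1a low on heart array 4 (10.24). Among the higher genes, Msr1 was low on liver array 1 (10.87) and Oit3 high on liver array 2 (11.33), while Il1a was high on brain array 1 (5.21) and heart array 1 (4.69), Akr1b8 high on heart array 1 (5.21) and Fabp1 low on heart array 2 (3.32). All of these genes were chosen for liver arrays that do not overlap with the others, so their lack of overlap is no check on the outlying arrays.

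Brain array 1 had the outlying mean of the glycocalyx list (6.98), the BMP and TGF-beta list (8.31), fibroblast markers (6.31) and astrocyte markers (5.62). Heart array 1 had that of the coagulation list (7.55) and of stellate cell markers (6.65), and heart array 5 that of antigen presentation (7.09). The Eph and ephrin list stood apart on brain array 5 (6.86) and the BMP and TGF-beta list also on liver array 1 (8.03).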

How the results depend on the processing

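The 3 counts stayed within 1.5 times their value (536 higher, 292 lower, 168 shared) when any 1 array was left out: 495 to 575, 285 to 301 and 161 to 178. The threshold moved them most. With no minimum difference the counts were 2064, 1124 and 851, and with a minimum of 2 they were 164, 94 and 53. Liver against the mean of brain and heart gave 575 lower genes. Brain and heart within 0.5 of each other left 59 shared genes. The fit with a replicate block gave 539, 293 and 173 genes and ended no call among the counts, since 536, 292 and 168 of them were the same genes. Deviations from the tissue means correlated at r = -0.001 to 0.204 (median 0.095, 6 of 15 over 0.1) between arrays of the same number. Between the 60 other pairs they correlated at -0.167 to 0.126 (median -0.024), and 12 of 15 arrays correlated best with an array of their own number. Deviations cancel out within each tissue, so these values are not independent of one another. Whether arrays of the same number share a batch was not tested. The numbers were not used to pair arrays in the main fit because not every pair was over 0.1. Centring on each array's median gave 566 higher and 276 lower genes, and centring on pan-endothelial genes 554 and 286. No gene chosen by the rule for named genes changed direction in 3190 values under the alternatives. In 58 values the call was lost, and 20 genes lost it at least once. None of the 41 leading genes did, but most of these were chosen for their large differences. Of the genes named outside the rule, C3ar1 changed direction, from 1.16 to -0.13 without liver arrays 1, 3 and 4. The alternatives that leave out liver arrays 1, 3 and 4, or brain array 1 with heart arrays 1 and 3, were chosen after seeing the data; the first leaves 2 liver arrays, and the lone pair is assumed to vary like the other groups. Arrays give no counts, and levels near the bottom of the scale have no order.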

Other observations

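The gene families in these paragraphs were chosen after their values were seen, and their members are counted over all measured genes of the same name pattern. Over all genes tested, 2.69% were higher and 1.46% lower. Among families also counted, 3 of 48 ABC transporters were higher and 4 lower, and 1 of 20 G protein regulators was higher and 3 lower. Of 30 sorting nexins 6 were higher in liver than in both continuous endothelia and 0 lower: Snx5 by 2.05, Snx24 by 1.96, Snx2 by 1.74, Snx33 by 1.60, Snx30 by 1.59 and Snx8 by 1.45. Of 37 Hox genes 4 were higher, Hoxb5 by 2.34, Hoxa5 by 1.72, Hoxa2 by 1.09 and Hoxb4 by 1.04 (0.97 and not called without liver array 5), and of 6 genes of their cofactors of the Meis and Pbx families Meis2 and Meis1 were higher, by 4.88 and 1.99. Of 4 phospholipid scramblases 3 were lower: Plscr2 by 2.99, Plscr1 by 2.05 and Plscr4 by 1.83, with a family median of -1.94 against brain and -2.67 against heart. These genes are close relatives, so their probes may not tell all members apart.

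Sialyltransferase genes were called in both directions. Of 20 measured, the polysialic or oligosialic enzymes St8sia4 and St8sia6 were lower by 4.22 and 3.27 and St6galnac2 by 2.04, while the alpha-2,3 enzymes St3gal4 and St3gal5 were higher by 2.59 and 1.58. Of 15 purine receptors 3 were higher, P2rx4 by 2.92, P2ry1 by 2.17 and P2rx7 by 1.89, and 0 lower, while Entpd1, which breaks down extracellular ATP, was lower by 1.44. Of the atypical chemokine receptors Ackr1, Ackr2 and Ackr4 were higher by 2.12, 1.99 and 1.13 and Ackr3 lower by 2.44. The complement receptors C5ar1, C5ar2 and C3ar1 were higher by 1.95, 1.18 and 1.16; C3ar1 was uneven in liver, at 7.70, 5.52, 7.75, 7.91 and 5.75 on arrays 1 to 5, and was not called without arrays 1, 3 and 4 (-0.13). Gjc1, a connexin, was lower by 2.87. Of 34 protocadherins Pcdh19 and Pcdh1 were lower by 3.04 and 2.27 and Pcdhb10 was higher by 1.12 (0.95 and not called without liver array 2). The 1 higher gene of 34 is near the 2.69% of all genes and is no trait of the family.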
